A study of Mus musculus with 4 samples.

Results

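The kidney 1 h after an injection of FGF23 was compared with the kidney at 0 h, as 1 single-cell RNA sequencing library each. Members of the comparison were all barcodes of these 2 of the 4 libraries in the series with at least 300 genes and at most 50% mitochondrial UMIs (unique molecular identifiers, which count captured RNA molecules). They numbered 19600 of 41076 cells, of which 10123 came from the 0 h and 9477 from the 1 h library. All mice were C57BL/6 and 10 weeks old. The 1 h group received a single intraperitoneal dose of 10 µg recombinant human FGF23 (rhFGF23) per mouse, and the 0 h group is labelled with a dose of 0 µg. The name of the 0 h matrix describes saline at 1 h, and no label says if its mice had an injection. Each library was made from kidneys of male and female mice digested together, so sex and animal cannot be told apart. With 1 library a group there is no replicate check, no test was run, and every interval below covers counting error only.

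FGF23 is a bone-derived hormone that acts on the kidney through FGF receptors paired with the co-receptor Klotho, whose gene is Kl. Receptor activation signals through the MAP kinase ERK. ERK activity induces immediate early genes such as Egr1, a zinc finger transcription factor, and feedback inhibitors such as the dual-specificity phosphatases and Sprouty proteins. In the proximal tubule FGF23 is known to lower phosphate reabsorption, to repress Cyp27b1, the enzyme that makes active vitamin D, and to induce Cyp24a1, the enzyme that degrades it.

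The deposited matrices held 13398 barcodes with 146107857 UMIs at 0 h and 12245 barcodes with 146942826 UMIs at 1 h. The filter kept 75.6% and 77.4% of barcodes, with a median of 10595 and 11666 UMIs per cell. Mitochondrial genes took 23.9% of UMIs in both libraries, and 29 barcode sequences occurred in both. The tissue label was checked against marker genes: proximal tubule (PT)-like cells were 6692 of the cells at 0 h (66.1%) and 6324 at 1 h (66.7%), and distal convoluted and connecting tubule (DCT/CNT)-like cells were 498 and 483. Names such as these were rebuilt here from markers and may differ from the study's own. The 18 PT markers summed to 55635 CPM (UMIs of a gene per 1e6 UMIs of the library or class) before and 45381 CPM after 1 h, a difference that lay mostly in Kap, an androgen-responsive kidney gene, at 37274 and 27477 CPM.

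Before the values, promoters are shown for 4 genes that hold a binding motif of the EGR factors, because Egr1 itself moved among the most. All 4 were higher at 1 h, with the largest part of the rise in PT-like cells. That part was 74.7% for Chka, 57.3% for Maff, 95.9% for Sertad4 and 59.9% for Tnfrsf12a. The log2 ratio of 1 h to 0 h of Tnfrsf12a was 1.06 in PT-like and 3.19 in DCT/CNT-like cells. Sequences are from RefSeq on the build GRCm38.p6, cover 250 bases before to 50 bases after the gene start, and read 5′ to 3′ on the gene's strand. Capitals mark the EGR motif, searched as GCGTGGGCG and GCGGGGGCG on both strands. Chka, choline kinase alpha, has its promoter at chr19:3851523-3851822 on the plus strand. Maff, a small MAF transcription factor, has it at chr15:79347270-79347569 on the plus strand. Sertad4, a SERTA domain gene, has it at chr1:192855703-192856002 on the minus strand. Tnfrsf12a, the receptor of the cytokine TWEAK, has it at chr17:23677400-23677699 on the minus strand.
Chka: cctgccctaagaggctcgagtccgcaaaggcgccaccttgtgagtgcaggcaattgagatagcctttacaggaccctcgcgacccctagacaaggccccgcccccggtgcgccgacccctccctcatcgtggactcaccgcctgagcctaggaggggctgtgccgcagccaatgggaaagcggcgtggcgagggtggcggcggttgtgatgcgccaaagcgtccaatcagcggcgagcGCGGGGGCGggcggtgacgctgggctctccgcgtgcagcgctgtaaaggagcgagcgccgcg
Maff: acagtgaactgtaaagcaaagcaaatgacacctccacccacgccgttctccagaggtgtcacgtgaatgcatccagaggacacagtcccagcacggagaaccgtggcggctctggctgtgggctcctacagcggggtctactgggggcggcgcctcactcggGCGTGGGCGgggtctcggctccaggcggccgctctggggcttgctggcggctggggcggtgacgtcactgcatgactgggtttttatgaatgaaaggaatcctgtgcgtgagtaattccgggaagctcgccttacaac
Sertad4: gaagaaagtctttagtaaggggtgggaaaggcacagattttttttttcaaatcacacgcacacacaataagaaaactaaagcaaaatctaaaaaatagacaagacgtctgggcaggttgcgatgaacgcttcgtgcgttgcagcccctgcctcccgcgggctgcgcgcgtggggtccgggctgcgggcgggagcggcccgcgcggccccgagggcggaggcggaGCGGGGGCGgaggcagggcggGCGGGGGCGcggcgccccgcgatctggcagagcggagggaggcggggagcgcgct
Tnfrsf12a: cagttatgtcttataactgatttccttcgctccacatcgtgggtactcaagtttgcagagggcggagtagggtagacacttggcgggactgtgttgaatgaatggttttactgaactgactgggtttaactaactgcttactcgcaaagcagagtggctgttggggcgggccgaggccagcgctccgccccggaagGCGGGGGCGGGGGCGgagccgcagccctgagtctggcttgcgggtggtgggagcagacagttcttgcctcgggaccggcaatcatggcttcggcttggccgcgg

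The Chka motif begins 12 bases and the Maff motif 88 bases before the gene start. Sertad4 holds 2 copies, the first 26 bases upstream, and Tnfrsf12a holds 2 overlapping copies, the first 54 bases upstream. Among the 29 genes whose rise had its largest part in PT-like cells, 20 had an entry in the promoter table, with 25 promoters. The EGR motif was in 4 of these 25 (16%), against 3.47% of all 32851 promoters of the same length. Their median GC content was 59.7%, against 52.7% over all promoters, and the part of GC content in the motif's share was not tested. The promoters of Dusp6 and Nab2 held no EGR motif. Of the 16 promoters of the matching genes that were lower, 1 held it (6.25%), that of Reln, which encodes the secreted protein reelin. The median GC content of the 16 was 61.3%. The cyclic AMP response element TGACGTCA was in 2 of the 25, those of Epha2 and Maff (8%, against 1.79% of all). The ETS motif CCGGAAGT and the forkhead motif TGTTTAC were in none of the 25, against 3.89% and 3.65% of all promoters. A match is a description of letters and not evidence of binding.

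Across the whole kidney most genes lay close to no change. Of 14008 genes with at least 100 UMIs over both libraries, 13489 (96.3%) lay within 1.5-fold, and the median log2 ratio of 1 h to 0 h was 0.01. A gene was counted as higher or lower when its CPM differed at least 2-fold, with 0.5 added to each count. By this rule 116 genes were higher (0.828% of genes) and 65 were lower (0.464%). In male-called and female-called cells taken separately, 108 of the 116 and 44 of the 65 kept their direction, and 71 and 17 were 2-fold changed in both sexes. The sexes come from the same library at each time, so they are not replicates of the treatment. The sums that picked these genes include the same cells, so a shared direction is partly built in. The same holds for the counts by sex within classes below.

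**Figure D1:**
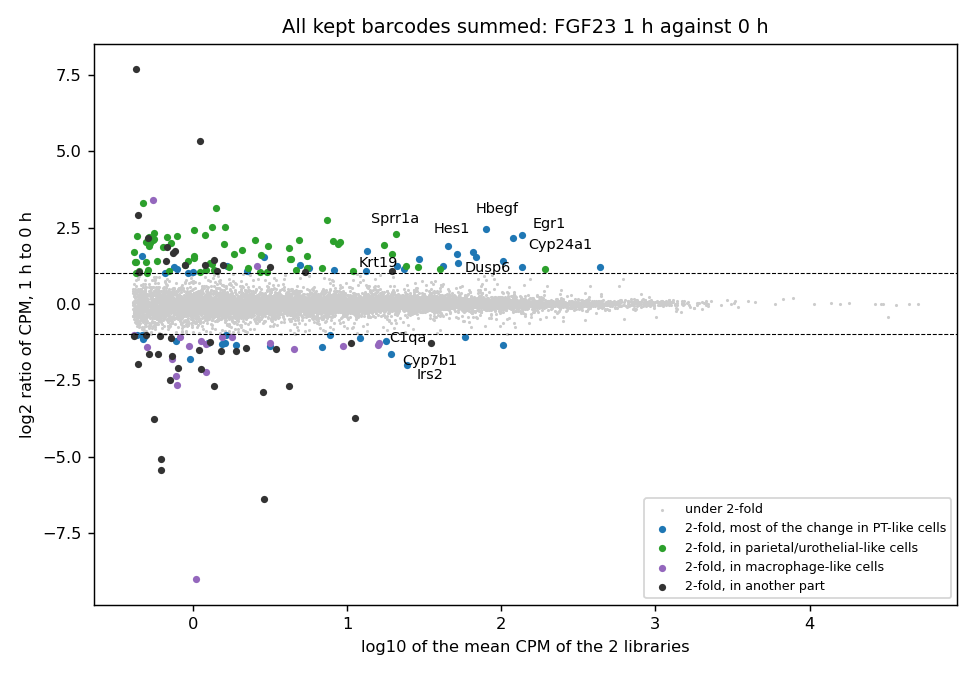
Log2 ratio of CPM, 1 h to 0 h (vertical), against log10 of the mean CPM of both libraries (horizontal) for genes with at least 100 UMIs. Each point is a gene, dashed lines mark 2-fold, and colours give the class that carried the largest part of the change: Egr1, Hbegf and Cyp24a1 stand above the line at high CPM, and Irs2 and Cyp7b1 below it.

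The 12 genes with the largest rise among well-counted genes fell into genes carried mainly by PT-like cells and genes carried mainly by parietal/urothelial-like cells. The former were 4 genes. Hbegf, a membrane-bound EGF receptor ligand, had 2999 UMIs (24.9 CPM) before and 16765 (135 CPM) after 1 h, which is a log2 ratio of 2.44 (95% interval 2.39 to 2.5). Egr1 had 5698 and 27943 UMIs, or 47.2 and 225 CPM, a log2 ratio of 2.25 (2.21 to 2.30). Cyp24a1 had 5270 and 24266 UMIs, or 43.7 and 196 CPM, a log2 ratio of 2.16 (2.12 to 2.21). Hes1, a transcriptional repressor best known as a Notch target, had 2293 and 8805 UMIs, or 19.0 and 71.0 CPM, a log2 ratio of 1.90 (1.84 to 1.97). PT-like cells carried 75.2% of the whole-kidney change of Hbegf, 75.5% of that of Egr1, 88.2% of that of Cyp24a1 and 71.3% of that of Hes1. They held 72.9% of all UMIs at 0 h and 73.1% at 1 h. Their parts of the changes of Hbegf, Egr1 and Hes1 were thus close to their share of UMIs. By GENCODE vM21 on GRCm38, Egr1 and Hbegf lie on chromosome 18, Cyp24a1 at chr2:170482708-170497145 and Hes1 at chr16:30064384-30067796.

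The other 8 of the 12 were Igfbp2, Sprr1a, Ctse, Vsig2, Fxyd3, Sptssb, Upk1a and Krt19. Upk1a encodes a uroplakin of the urothelium, Krt19 a keratin of simple epithelia, and Igfbp2 a binding protein of insulin-like growth factors. Krt19 had 863 UMIs at 0 h and 3397 at 1 h, a log2 ratio of 1.94, and Igfbp2 had 230 and 1593, a log2 ratio of 2.75 (2.55 to 2.96). These genes were carried by parietal/urothelial-like cells, which were 11 cells (0.109%) at 0 h and 44 cells (0.464%) at 1 h, and which held 0.156% and 0.921% of all UMIs. Within those cells the log2 ratio was -0.26 for Krt19, 0.14 for Upk1a, 0.12 for Sprr1a and 0.31 for Igfbp2. Of the 116 higher genes, 68 had the largest part of their rise in this class, and 64 rose mainly by a change in class share. The exact binomial intervals of the class share were 0.0543% to 0.194% and 0.338% to 0.623%, and 36 of the 44 cells at 1 h were female-called, against 6 of 11 at 0 h. With the class shares of the 1 h library set to those of 0 h, 47 genes were 2-fold higher, of which 43 were among the 116.

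The largest falls belonged to several classes. Irs2, the adaptor of insulin and IGF receptors, had 4741 UMIs (39.3 CPM) before and 1222 (9.85 CPM) after 1 h, which is a log2 ratio of -1.99 (-2.09 to -1.90), and PT-like cells carried 86.8% of the change. Cyp7b1, an oxysterol hydroxylase, was at 29.0 and 9.36 CPM, a log2 ratio of -1.63. Rhov was at 9.88 and 3.75 CPM, and Slco4c1, an organic anion transporter, had a log2 ratio of -1.36. PT-like cells carried 89.6%, 90.6% and 84.9% of these 3 changes. Mgp, matrix Gla protein, was carried by unnamed cells (64.5%).

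A further 6 were immune genes. C1qa, C1qb and C1qc, the subunits of complement C1q, had log2 ratios of -1.36, -1.27 and -1.37. Macrophage-like cells were 202 at 0 h and 115 at 1 h, and within them the log2 ratios were -0.74, -0.64 and -0.79. The chemokines Ccl3 and Ccl4 had whole-kidney log2 ratios of -1.28 and -1.49, and macrophage-like cells carried 53.2% and 67.0% of the changes. Xcl1, a chemokine of T and NK cells, had a log2 ratio of -1.49, and 36.6% of its UMIs at 0 h lay in 1 barcode. The macrophage-like class joined a cluster led by the C1q genes (170 barcodes at 0 h and 72 at 1 h, doublet calls included) with a cluster led by Lyz2 and Chil3 (63 and 60). Over all cells C1qa had 2746 UMIs in 122 cells at 0 h and 1100 UMIs in 45 cells at 1 h. C1qb had 2725 UMIs in 140 cells and 1158 in 44, and C1qc 1620 in 111 and 646 in 41. The parts of the mix of these clusters and of RNA per cell in the values of the class were not tested. The stromal markers were lower in 11 of 11, at a sum of 146 and 77 CPM. Of that fall, 29.0 CPM came from Ren1, which encodes renin: 55.4% of its UMIs at 0 h lay in 1 barcode, and its ratio was 0.41 in female-called and 2.73 in male-called cells. The haemoglobin genes were lower in 4 of 4, with a median log2 ratio of -3.32. A single barcode held 44.5% of the 0 h UMIs of Hbb-bs, 44.6% of those of Hba-a2, 56.6% of Hbb-bt and 59.9% of Hba-a1. In female-called cells their ratios were -0.17, 0.37, -2.32 and 0.41 in that order.

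**Figure D2:**
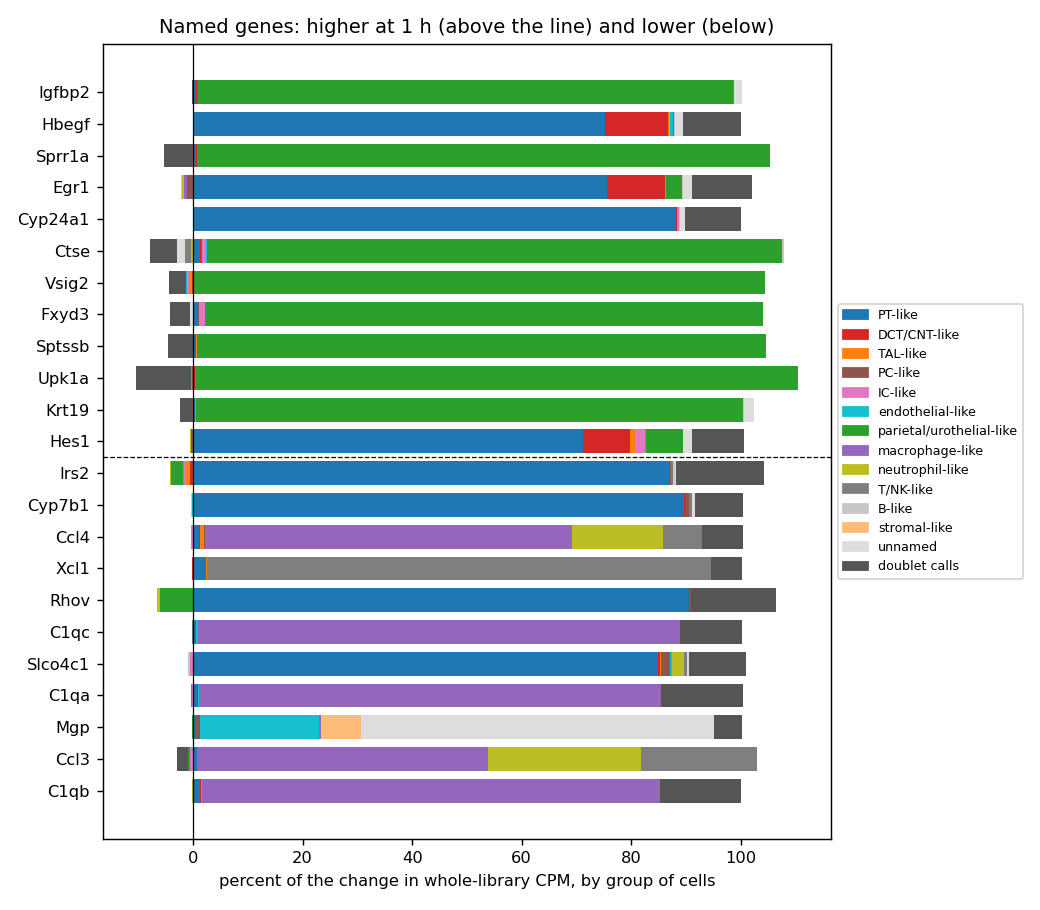
Percentage of each named gene's whole-kidney change (horizontal) that each cell class contributed (colours; parts left of 0 ran against the change), for genes higher at 1 h (above the line) and lower (below). PT-like cells fill most of the bars of Cyp24a1, Egr1, Hbegf, Hes1, Irs2, Cyp7b1 and Rhov, and parietal/urothelial-like cells those of Krt19 and Upk1a.

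Within PT-like cells, 50 of 11651 genes were at least 2-fold higher (0.429%) and 48 were lower (0.412%). Direction was shared by both called sexes for 48 of the 50 and 41 of the 48, and no single barcode supplied most of the UMIs of any of them. Egr1 had a level of 21.5 CPM (interval 20.5 to 22.5) before and 205 CPM (202 to 208) after 1 h, a 9.56-fold difference. Hes1 was at 6.26 and 56.9 CPM, 9.09-fold higher. Phlda1, an ERK-responsive gene, had 27 UMIs and then 243, a log2 ratio of 3.1 (2.55 to 3.76). These were the 3 largest rises by the rule for named genes.

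The vitamin D enzymes moved in opposite directions in PT-like cells. Cyp24a1 had a level of 50.6 CPM (49.1 to 52.1) before and 234 CPM (231 to 237) after 1 h, 4.62-fold higher. Cyp27b1 (chr10:127048250-127053006) had 237 UMIs (2.69 CPM) and then 89 UMIs (0.982 CPM), a log2 ratio of -1.45 (-1.82 to -1.10). They were the only 2 of the 15 measured genes of a vitamin D and phosphate list that passed 2-fold in either direction, and the list's median was 0.08 against 0.01 for all genes. Members of a list were measured from 20 UMIs up, and at that minimum 0.810% of all genes were 2-fold higher in PT-like cells and 1.49% lower. The phosphate transporters did not pass it: Slc34a1 had a log2 ratio of 0.00 on 325030 and 335274 UMIs, and Slc34a3 one of -0.04. Outside PT-like cells Cyp24a1 had few UMIs that also differed between the libraries, 8 and 44 in DCT/CNT-like, 5 and 20 in thick ascending limb (TAL)-like and 6 and 32 in B-like cells, where they lay in 2.78% and 2.23% of cells, and the part of free PT RNA in these was not tested. Vdr, the vitamin D receptor, had 8173 and 11111 UMIs, a log2 ratio of 0.40 (0.36 to 0.44).

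FGF receptor genes stayed below the 2-fold line in PT-like cells. Kl stood at 209 and 193 CPM, a log2 ratio of -0.12. Fgfr1 had 893 and 925 UMIs, Fgfr3 1652 and 1476, and Fgfr4 1319 and 1305. Of 11 measured genes of the receptor and adaptor list, none was 2-fold changed, and Klb, the co-receptor for other endocrine FGFs, had 0 UMIs in both libraries.

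Genes of ERK feedback were the list with the most members past 2-fold in PT-like cells. Of 21 measured members, 17 had a positive and 4 a negative log2 ratio, with a median of 0.51 against 0.01 for all genes. Past 2-fold stood 9 higher members and 1 lower. Dusp6, the phosphatase of ERK itself (chr10:99263231-99267489), was at 22.3 and 83.2 CPM, a log2 ratio of 1.90 (1.83 to 1.97). The nuclear phosphatases Dusp2, Dusp4 and Dusp5 had ratios of 2.91, 1.21 and 2.27. The Sprouty inhibitors Spry1, Spry2 and Spry4 had 2.03, 1.20 and 1.58. Nab2, the co-repressor that binds EGR factors (chr10:127660918-127668568), was at 3.99 and 13.5 CPM, a ratio of 1.76 (1.58 to 1.93). Spred3 was the member below the line, with -1.47. Errfi1, an inhibitor of the EGF receptor, had 46936 and 74345 UMIs, a ratio of 0.62, and Dusp1 had -0.68.

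Immediate early genes split in PT-like cells. Of 21 measured members 16 had a positive ratio, with a median of 0.40, and 6 were 2-fold higher: Egr1, Junb, Ier2, Klf6, Klf10 and Maff. Ier2 had 1897 and 6452 UMIs, a ratio of 1.72, and Junb 2483 and 5667, a ratio of 1.15. The AP-1 genes Fos, Jun and Fosb had ratios of 0.40, -0.07 and -0.32, and were already at 62.7, 364 and 83.9 CPM at 0 h. The kidneys of both libraries were digested, which is known to induce Fos, Jun and heat shock genes. The part of digestion in these values was not tested. The heat shock list had 13 members with a median of 0.08 and none past 2-fold.

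Other genes that were 2-fold higher in PT-like cells, named after their values were seen, included regulators of transcription and growth. Id1, an inhibitor of basic helix-loop-helix factors and a known BMP target, had 1374 and 7926 UMIs, a ratio of 2.48, and Id3 had 2178 and 5868, a ratio of 1.39. Epha2, an ephrin receptor, had 67 and 326 UMIs, a ratio of 2.23. Plk3, a stress-responsive kinase, had a ratio of 1.67, Chka 1.46 and Hmox1, heme oxygenase, 1.46. The metallothioneins Mt1 and Mt2, which bind zinc, had 1.47 and 1.55. Bhlhe40, a repressor in the circadian clock, had 2820 and 9279 UMIs, a ratio of 1.68.

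Irs2 and Cyp7b1 were among the largest falls in PT-like cells. Irs2 (chr8:10984681-11008458) stood at 41.7 CPM (40.4 to 43.1) before and 6.65 CPM (6.13 to 7.20) after 1 h, with a log2 ratio of -2.65 (-2.78 to -2.52). Txnip, a glucose-responsive arrestin, had 9114 and 3187 UMIs, a ratio of -1.56, and Ddit4, an inhibitor of mTOR complex 1, had 722 and 234, a ratio of -1.67. Irs2, Txnip, Fbxo32 and Bbc3 belong to a list of genes activated by FoxO factors, of which 4 of 27 measured members were 2-fold lower and 2 (Gadd45a and Bcl6) were higher, with a median of -0.03. Fbxo32 had only 17 and 5 UMIs here. The other 21 lay within 2-fold, among them G6pc, Pck1 and Foxo1 with ratios of -0.05, 0.13 and -0.03.

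**Figure D3:**
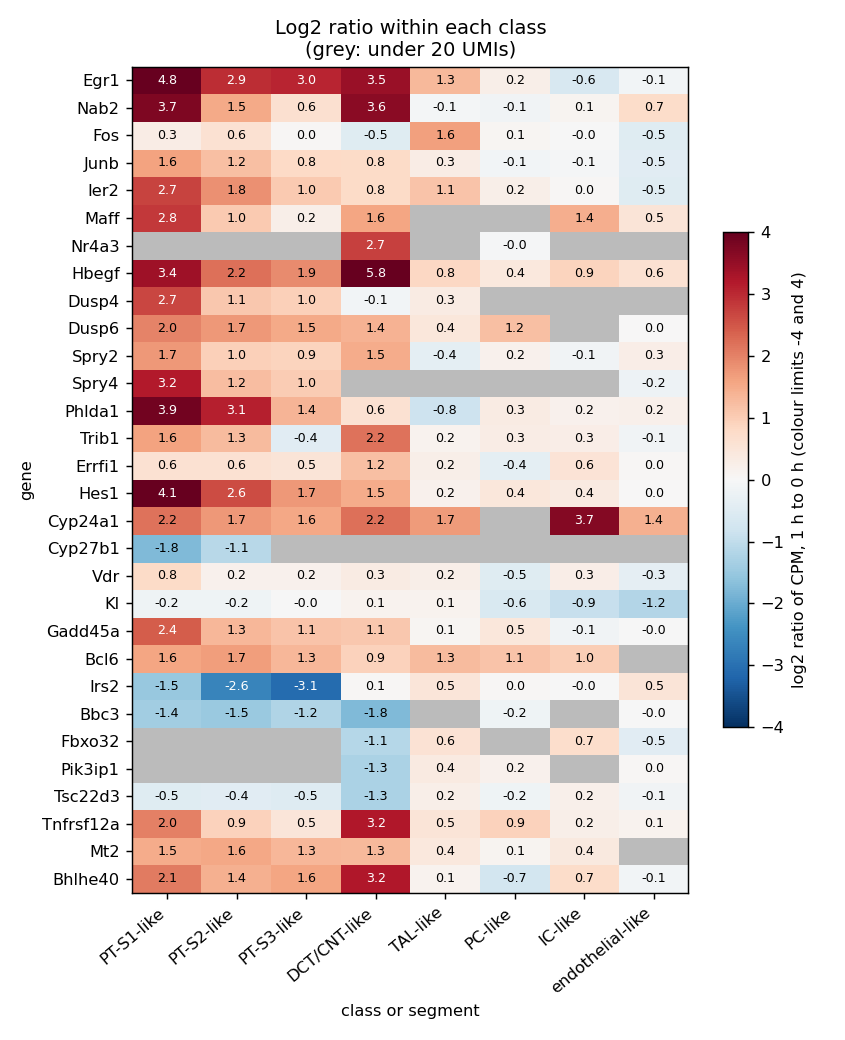
Each row is a gene and each column a class or PT segment, with the log2 ratio of CPM (1 h to 0 h) printed and coloured from blue (lower at 1 h) to red (higher), and grey for genes under 20 UMIs (PC: principal cell, IC: intercalated cell). Egr1 and Hes1 are highest in S1-like cells at 4.79 and 4.10, Hbegf reaches 5.79 in DCT/CNT-like cells, Irs2 is lowest in S3-like cells at -3.08, and Egr1 in endothelial-like cells stands at -0.11.

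The PT segments differed in size of change. PT-like clusters were placed by segment markers into S1-like (2539 and 2508 cells), S2-like (1936 and 2107) and S3-like (2217 and 1709). Some S2-like placements were near ties in mean marker score. A cluster of 416 and 440 barcodes led the next segment by 0.055, and one of 360 and 343 by 0.083, doublet calls included. The former had the S3 markers Slc7a13 and Atp11a among its top genes. Egr1 was at 6.12 and 170 CPM in S1-like cells, at 27.8 and 214 CPM in S2-like and at 28 and 231 CPM in S3-like, with log2 ratios of 4.79, 2.95 and 3.04. Hes1 went from 6.73 to 116 CPM in S1-like cells, a ratio of 4.10, and had 2.61 in S2-like and 1.75 in S3-like. Hbegf had ratios of 3.38, 2.20 and 1.89 along the same order. Nab2 had 3.72 in S1-like and 0.64 in S3-like cells.

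Feedback genes with lower counts also had their largest ratios in S1-like cells. Dusp5 had 30 and 266 UMIs in S1-like cells, a ratio of 2.93 (2.4 to 3.54), 11 and 20 in S2-like, a ratio of 0.51, and 22 and 28 in S3-like, a ratio of 0.63 (-0.22 to 1.51). Spry4 had ratios of 3.18 (2.62 to 3.86), 1.23 and 1.02 (0.70 to 1.35) in S1-like, S2-like and S3-like cells. Dusp4 had 2.68, 1.09 and 0.97, and Dusp2 3.30, 2.49 and 1.63. The intervals cover counting error only, and the differences between segments were not tested across animals or within each called sex. Cyp24a1 was at 127 and 571 CPM in S1-like cells, at 33.7 and 112 CPM in S2-like and at 9.32 and 27.4 CPM in S3-like, with ratios of 2.17, 1.73 and 1.55.

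Irs2 and Txnip, chosen here after their values were seen, had their largest falls in S3-like cells. Irs2 had ratios of -1.52 in S1-like (21.1 and 7.36 CPM), -2.63 in S2-like (33.3 and 5.37 CPM) and -3.08 in S3-like cells (60.7 and 7.16 CPM). Txnip had -0.99 in S1-like and -1.75 in S3-like cells. Both falls also differed by called sex: Irs2 had -3.32 in male-called and -0.79 in female-called PT-like cells, and Txnip -1.94 and -0.69. A cluster placed as S3-like, of 660 and 595 barcodes, had the androgen-responsive gene Kap among its top genes. Sex and segment were not separated here, and the part of sex in these falls was not tested. Cyp7b1 was at 77.5 and 28.5 CPM in S3-like cells, a ratio of -1.44. The S3-like cells were 33.1% of PT-like cells at 0 h and 27.0% at 1 h. A cluster whose leading gene was Cyp7b1 held 299 barcodes at 0 h and 115 at 1 h. The transporter Slc22a7 also leads it. In PT-like cells Cyp7b1 had 3011 UMIs in 200 cells at 0 h and 906 UMIs in 67 cells at 1 h. The parts of fewer such cells and of less RNA per cell in the falls of Cyp7b1 and Slc22a7 were not tested.

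In DCT/CNT-like cells 49 of 7670 genes were at least 2-fold higher (0.639%) and 15 were lower (0.196%), and all 49 had the same direction in both called sexes. Hbegf had 25 UMIs (4.92 CPM, 3.19 to 7.27) before and 1592 UMIs (278 CPM, 265 to 292) after 1 h, 55.4-fold higher. Nab2 had 52 and 727 UMIs, or 10.2 and 127 CPM, a log2 ratio of 3.62 (3.23 to 4.07). Egr1 had 206 and 2568 UMIs, or 40.6 and 449 CPM, a ratio of 3.46 (3.26 to 3.68). These were the 3 largest rises by the rule for named genes. Kl, which the distal tubule transcribes strongly, was at 1330 and 1475 CPM, a ratio of 0.15.

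Other rises in DCT/CNT-like cells were the orphan nuclear receptors Nr4a1 (114 and 731 UMIs, ratio 2.5) and Nr4a3 (17 and 132, ratio 2.75), and Atf3, a stress-induced factor (17 and 144, ratio 2.87). Tnfrsf12a had 55 and 570 UMIs, a ratio of 3.19 (2.80 to 3.63). Trib1, a pseudokinase, had 118 and 599, a ratio of 2.17. Named after their values were seen, Id2 had 678 and 3969 UMIs, a ratio of 2.38, and Rgs2, an inhibitor of G protein signalling, had 150 and 815, a ratio of 2.27. Of 22 measured immediate early genes 7 were 2-fold higher and 1, Klf2, was lower, with a median of 0.78 against -0.04 for all genes in this class. Of 19 measured ERK feedback genes 5 were 2-fold higher (Dusp6, Spry2, Errfi1, Trib1 and Nab2), with a median of 0.60.

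The DCT/CNT-like cells came from 2 clusters that differed in the size of change. One, led by Slc12a3 and Pvalb, held 379 cells at 0 h and 336 at 1 h. The other, led by S100g and Calb1, held 119 and 147. Hbegf was at 5.52 and 421 CPM in the first, a ratio of 6.22, and at 3.45 and 16.3 CPM in the second, a ratio of 2.13. Egr1 was at 37.0 and 594 CPM in the first and at 49.6 and 183 CPM in the second, with ratios of 4.00 and 1.88. Nr4a1 had 2.78 (2.48 to 3.11) and 0.63 (-0.26 to 1.65), and Bhlhe40 3.59 (3.26 to 3.94) and 1.35 (0.69 to 2.11). Spry2, in contrast, had 1.41 and 1.58. Kl was higher in the second cluster, at 2762 and 2835 CPM, than in the first, at 757 and 734 CPM. The cells of both clusters came from the same 2 libraries, and the difference between the clusters was not tested.

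The falls in DCT/CNT-like cells rested on fewer molecules. Of the 15 lower genes, 7 had most of their UMIs in 1 barcode, among them all 4 haemoglobin genes. Tsc22d3, a glucocorticoid-induced leucine zipper gene, had 137 and 64 UMIs, a ratio of -1.26 (-1.72 to -0.83), and Pik3ip1, an inhibitor of PI3 kinase, had 102 and 48, a ratio of -1.25 (-1.79 to -0.75). Fbxo32, a ubiquitin ligase subunit, had 71 and 36, a ratio of -1.14. These 3 are on the FoxO list, whose 26 measured members had a median of -0.25, with 5 members 2-fold lower (Pik3ip1, Tsc22d3, Fbxo32, Bbc3 and Pck1) and 1 higher (Gadd45a). At the minimum of 20 UMIs used for lists, 1.60% of all genes were 2-fold lower in these cells and 1.07% higher. All 8 gluconeogenesis genes were lower, with a median of -0.68: Pck1 had 273 and 120 UMIs, a ratio of -1.35, with 27.8% of the 0 h UMIs in 1 barcode. Gatm, a PT-rich enzyme, had 186 and 69 UMIs, with 30.1% in 1 barcode, and the PT marker Slc34a1 had 615 and 478 UMIs in these cells, a ratio of -0.54. The part of free or doublet-borne PT RNA in the gluconeogenesis values was not tested. Irs2 had a ratio of 0.06 (-0.29 to 0.42) here.

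PT-like and DCT/CNT-like cells shared 15 of their 2-fold higher genes, 30.0% of the PT list and 30.6% of the DCT/CNT list. They were Bhlhe40, Chka, Ddit3, Dusp6, Egr1, Gadd45a, Hbegf, Hes1, Mt2, Nab2, Rnd3, Sertad1, Spry2, Tmem252 and Tnfrsf12a. The values come from the same 2 libraries, so the overlap is no independent support of either list. Of the lower genes 1 was shared, the haemoglobin gene Hbb-bs.

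**Figure D4:**
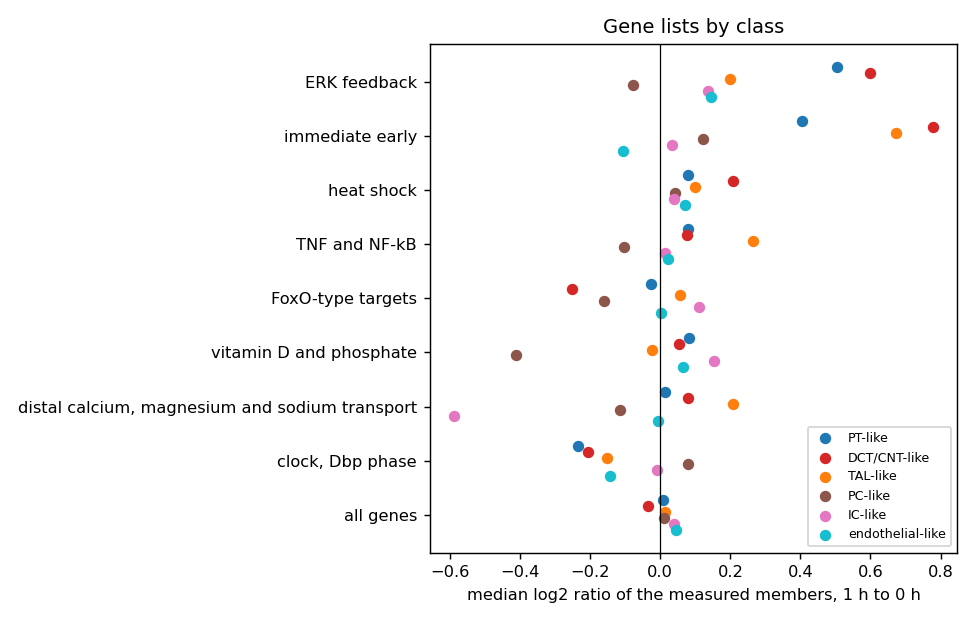
Median log2 ratio of the measured members of each gene list (rows), 1 h to 0 h (horizontal), with 1 point per class and all genes in the lowest row. Immediate early and ERK feedback genes lie farthest right, at 0.40 and 0.51 in PT-like and 0.78 and 0.60 in DCT/CNT-like cells, while PC-like, IC-like and endothelial-like points of both lists lie between -0.11 and 0.14.

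Shares of cells with at least 1 UMI moved with the levels. In PT-like cells Egr1 was detected in 9.22% of cells at 0 h and 73.3% at 1 h, and after thinning each cell to 2000 UMIs in 3.05% and 28.8%. Hes1 was detected in 7.07% and 34.9% (thinned 1.12% and 10.3%), and Cyp24a1 in 21.4% and 45.2% (8.53% and 27.8%). Irs2 was detected in 31.6% and 8.30% (6.43% and 1.20%). In DCT/CNT-like cells Egr1 was detected in 14.3% and 83.0%, and Hbegf in 4.82% and 51.1% (thinned 1.25% and 31.2%). B-like cells, used as a background for free RNA, had Egr1 in 5.00% and 6.70% and Hbegf in 0.556% and 1.68% of cells. After thinning, the B-like shares were 4.49% and 5.30% for Egr1, 6.74% and 3.79% for Hes1, 1.12% and 1.52% for Hbegf, 1.12% and 1.52% for Cyp24a1 and 2.25% and 1.52% for Irs2. The thinned PT-like shares of Egr1 and Hes1 at 0 h and of Irs2 at 1 h lay below these. Thinning removed a larger part of the UMIs of PT-like cells than of B-like cells, free RNA included. The thinned B-like shares therefore cannot serve as a level of free RNA for PT-like cells. The part of the B-like cells' own RNA in their shares was not tested. The thinned B-like shares rest on 89 cells at 0 h and 132 at 1 h. For Egr1 at 0 h the B-like interval was 1.24% to 11.1%. The part of free RNA in the PT-like values was not tested. Median depths were 12085 and 12957 UMIs in PT-like and 1993.5 and 2318 in B-like cells. Thinning left out 329 and 140 PT-like and 91 and 47 B-like cells below 2000 UMIs.

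TAL-like cells changed little. Of 6200 genes 5 were 2-fold higher (0.0806%) and 1 was lower (0.0161%). The higher genes included Fos (40 and 143 UMIs, ratio 1.64), Ier2 (32 and 81, ratio 1.15), Klf6 (113 and 268, ratio 1.06) and S100g, a calcium-binding protein, which had 53.1% of its 1 h UMIs in 1 barcode. The count rule asks for 100 UMIs, and Egr1 passed it with 32 and 90, a ratio of 1.30. After thinning, Egr1 was detected in 1.64% and 2.48% of TAL-like cells, and in 4.49% and 5.30% of B-like cells (4 of 89 and 7 of 132). Median depths before thinning were 7867 and 9355 UMIs in TAL-like cells and 1993.5 and 2318 in B-like cells. Thinning thus removed a larger part of the UMIs of TAL-like cells, so the B-like shares cannot serve as their level of free RNA. The part of free RNA in the TAL-like values was not tested. The lower gene was Idh1, isocitrate dehydrogenase, with 72 and 39 UMIs.

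Endothelial-like cells had 6 of 5226 genes higher (0.115%) and 4 lower (0.0765%). Egr1 was not among them, at 228 and 212 CPM. Gbp5, an interferon-induced GTPase, had 41 and 115 UMIs, a ratio of 1.4, and Oasl1, of the same response, 52 and 134, a ratio of 1.28. A single barcode held 38.3% of the 1 h UMIs of Gbp5 and 44.8% of those of Oasl1. Cxcl10, an interferon-induced chemokine, had 2 and 290 UMIs, and 83.8% of the latter lay in 1 barcode. Ccl21a, a lymphatic chemokine, had 0 and 267 UMIs, of which 99.6% lay in 1 barcode. Calca, the precursor of calcitonin and CGRP, had 406 and 202 UMIs, a ratio of -1.08, and Egfl8, a secreted EGF-like protein, 166 and 80, a ratio of -1.13. Egr1 was at 710 and 834 CPM in PC-like cells and at 154 and 99.2 CPM in IC-like cells. At 0 h PC-like cells held 20.1% of all Egr1 UMIs and PT-like cells 33.2%, and at 1 h these shares were 3.40% and 66.6%.

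Cells were called female by Xist or male by Y-linked genes, which gave 2494 female and 4236 male cells at 0 h and 2567 and 4006 at 1 h. In PT-like cells Egr1 was at 14.1 and 207 CPM in female-called and 28.2 and 222 CPM in male-called cells, with ratios of 3.88 and 2.98. Hbegf was at 8.75 and 136 CPM in female-called and 34.0 and 157 CPM in male-called cells. Both genes were lower in female-called cells at 0 h and near the male level at 1 h. Hes1 went from 6.60 to 101 CPM in female-called and from 6.75 to 41.2 CPM in male-called cells. Cyp24a1 had ratios of 2.10 and 2.27, on levels of 95.7 and 412 CPM in female-called and 38.8 and 187 CPM in male-called cells.

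The lower genes also differed in size between the sexes. Irs2 was at 17 and 9.84 CPM in female-called cells, a ratio of -0.79 (-1.05 to -0.53), and at 54.4 and 5.44 CPM in male-called cells, a ratio of -3.32 (-3.50 to -3.14). Cyp27b1 had 103 and 23 UMIs in female-called cells, a ratio of -2.41 (-3.16 to -1.77), and 87 and 50 in male-called cells, a ratio of -0.78 (-1.32 to -0.27). Named after their values were seen, Gadd45g, a stress-responsive cell cycle regulator, had 0.42 in female-called and -1.90 in male-called cells, and Cish, a STAT5-induced inhibitor of cytokine signalling, 0.59 and -3.62. Over all cells the immediate early list had a median of 0.90 in female-called and 0.12 in male-called cells, with 24 of 24 and 15 of 25 measured members higher. The list of ERK feedback had 0.70 and 0.32. The number of animals of each sex is not given in the sources used here, and these differences between the sexes were not tested.

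**Figure D5:**
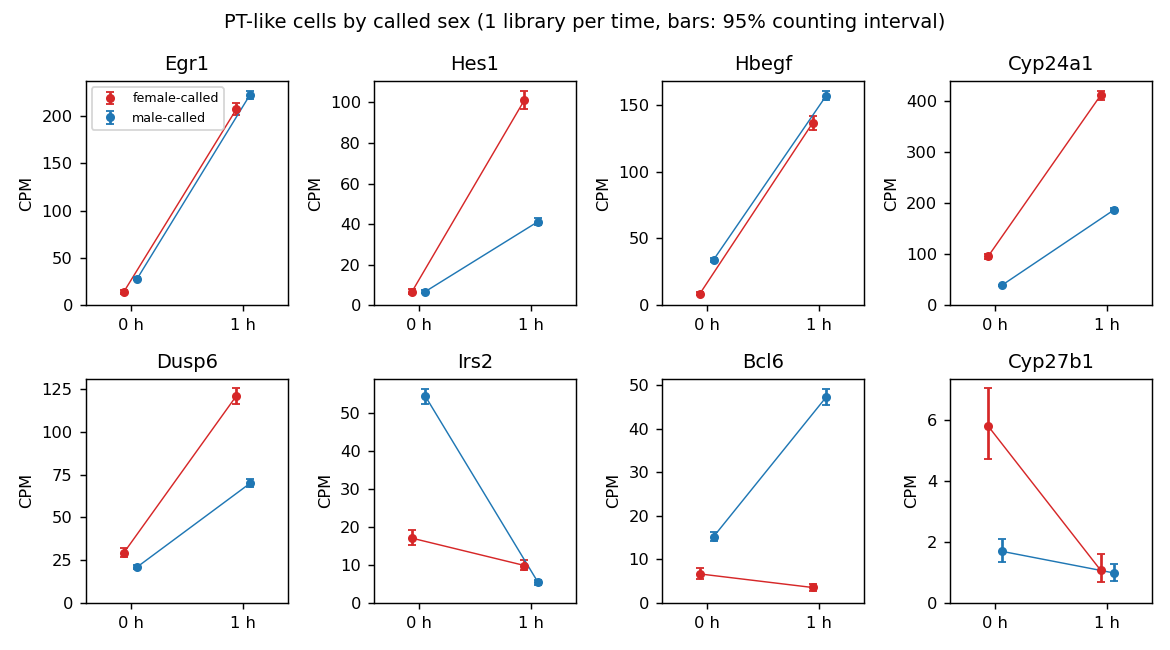
CPM in PT-like cells at 0 h and 1 h for 8 genes, in female-called (red) and male-called (blue) cells, with 95% counting intervals and 1 library per time. Egr1 and Hbegf start lower in female-called cells and end close to male-called cells, and Irs2 starts at 54.4 CPM in male-called and 17 CPM in female-called cells.

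The remaining lists gave medians close to that of all genes over all cells (0.01), each with the count of members past 2-fold. With at least 20 UMIs, 1.62% of all genes were 2-fold higher and 1.32% lower over all cells. The EGF receptor system had -0.04 over 12 genes, with Hbegf and Areg higher, and the Notch pathway 0.02 over 18, with Hes1 alone higher over all cells. In PT-like cells Dll1, a Notch ligand, was also 2-fold higher, with 271 UMIs at 0 h and a ratio of 1.01. Distal calcium, magnesium and sodium transport had 0.09 over 17 genes and none past it. Heat shock genes had 0.09 over 13 and gluconeogenesis 0.04 over 8, with none past it. Cholesterol synthesis had 0.06 over 15 genes and actin and SRF-MRTF targets 0.09 over 16, again with none. The glucocorticoid-responsive list had 0.07 over 14, with Mt2 higher and Ddit4 lower, and TNF and NF-kB genes 0.01 over 26, with Tnfrsf12a higher.

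The clock lists had medians on opposite sides of that of all genes. The genes of the Dbp phase had a median of -0.19 over 11, with Bhlhe40 higher, and those of the Bmal1 phase 0.24 over 5. In PT-like cells Dbp itself, an output factor of the clock, had 2120 and 1385 UMIs, a ratio of -0.66, and Per1 had 552 and 1075, a ratio of 0.92. The part of clock time in other results was not tested. Pancreatic genes, which the kidney should lack, had a median of -0.31 over the 10 measured of 18.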

How the data were processed

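Kidney cells were profiled with the 10x Genomics 3' V3 kit. The deposited matrices hold raw UMI counts per gene and barcode, made with Cell Ranger 3.1.0 on mm10, per the submitters' processing notes. Barcodes with fewer than 300 genes (1478 at 0 h and 1398 at 1 h) or over 50% mitochondrial UMIs (1797 and 1370) were left out. Counts were summed over all kept barcodes and scaled to CPM. CPM has exact Poisson 95% intervals, cell shares have Clopper-Pearson intervals, and log2 ratios, with 0.5 added to each count, have exact conditional binomial intervals. All of them cover counting error only, because 1 library a group gives no spread between animals. The count of 2-fold changes used genes with at least 100 UMIs over both libraries, and list medians members with at least 20. The gene count and ratio steps were checked on simulated counts.

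Cells of all 4 libraries were clustered together with scanpy 1.11.5 and leidenalg 0.10.2 (2000 variable genes plus markers, 30 principal components, 20 neighbours, resolution 1.5), giving 38 clusters. Doublets were called from simulated doublets among 30 neighbours at 0.8% per 1000 cells, which marked 7.63% of cells at 0 h and 6.90% at 1 h. They stayed in whole-kidney sums and were left out of class sums. A cluster was named from its markers' levels relative to each marker's highest cluster, with at least 3 markers on, by thresholds chosen once the clusters were known. Unnamed clusters held 123 cells at 0 h and 110 at 1 h. A change was assigned to the class with the largest part of the difference in CPM, and split into change within a class and change of the class share at the midpoint of both libraries.

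Genes were named by size: the 12 largest rises and the 12 largest falls with at least 500 UMIs and the same direction in male-called and female-called cells, and up to 3 each way per class of at least 100 cells. Some genes that this rule names are not reported here. That naming passed over genes of mitochondria, ribosomal proteins, haemoglobins, immunoglobulins and sex chromosome calls, and genes without a proper name. The members, lists and rules were chosen with earlier results of these data known. Positions are from GENCODE vM21 by gene ID, which matched 99.6% of 31053 IDs, which assumes that the authors used the same gene models. Alternatives tried were other filters, scalings, minimums, a fold of 1.5, each sex alone, equal weight per cell, doublet treatment, fixed class shares and clustering of these 2 libraries alone. Other tools were Python 3.11.15, numpy 2.4.6, scipy 1.17.1, pandas 2.3.3 and matplotlib 3.10.9.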

Additional observations from a re-analysis of the deposited data

Results flagged for a closer look

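Some genes differed in opposite directions between the sexes in PT-like cells, and none of these differences was tested. Bcl6, a transcriptional repressor, had 118 and 76 UMIs in female-called cells, a log2 ratio of -0.91, and 780 and 2407 UMIs in male-called cells, a ratio of 1.64. Hspb1, a small heat shock protein, had 27 and 15 UMIs, a ratio of -1.10, and 81 and 185 UMIs, a ratio of 1.20. The insulin genes, which kidney cells are not known to transcribe, had few UMIs: Ins1 had ratios of 1.87 in female-called and -0.93 in male-called cells, and Ins2 of 1.79 and -1.15. Nfil3, a clock-linked repressor, was lower in PT-like cells (1058 and 560 UMIs, ratio -0.96) and higher in DCT/CNT-like cells (45 and 85 UMIs, ratio 0.74), and that difference was not tested either.

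Barcodes left out for exceeding 50% mitochondrial UMIs (1797 at 0 h and 1370 at 1 h) also differed between the libraries. Their log2 ratios were 3.53 for Egr1, 2.65 for Hbegf, 1.43 for Hes1 and 1.86 for Cyp24a1. Egr1 had 117 UMIs at 0 h and 1149 at 1 h in them. Irs2 had 150 and 85 UMIs, a ratio of -0.57, against -1.99 in the cells that were kept.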

How the results depend on the processing

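No paired analysis was possible because there is 1 library per group. The counts of 2-fold genes moved with the thresholds, the sex call and the class shares. Over all cells 116 genes were higher, against 264 with at least 20 UMIs, 53 with at least 500 UMIs, 254 at a fold of 1.5, 58 in male-called cells and 47 with fixed class shares. The count of lower genes was 65, against 216 with at least 20 UMIs, 22 with at least 500 UMIs and 265 at a fold of 1.5. In PT-like cells 50 genes were higher, against 110 with at least 20 UMIs and 153 at a fold of 1.5. In DCT/CNT-like cells it was 49, against 114, 22 with at least 500 UMIs, 164 at a fold of 1.5 and 26 in male-called cells. The ERK feedback median of 0.54 became 0.62 with at least 1000 genes per barcode, 0.35 with equal weight per cell, 0.70 in female-called and 0.32 in male-called cells. The immediate early median of 0.40 became 0.36 at a mitochondrial limit of 25%, 0.49 with at least 1000 genes per barcode, 0.26 with equal weight, 0.90 in female-called cells, 0.12 in male-called cells and 0.45 with no UMI minimum. The cause was not tested, except that lower minimums and folds admit more genes by construction. Direction turned with class shares fixed for Sprr1a (-0.17), Ctse (-0.051), Vsig2 (-0.15), Fxyd3 (-0.26), Sptssb (-0.46), Upk1a (-0.38) and Krt19 (-0.18). It also turned for Bcl6 in female-called cells (-0.52) and for Kl in male-called cells (0.052). These 9 were all the reversals among 333 values of 37 genes over 9 settings. Of 70 values of the counts and medians, 46 stayed within the limits set for them. The median of all genes lay between -0.00 and 0.02 under every scaling. Few cells limit the small classes: 2-fold counts there need 100 UMIs, and genes below that were not detectable as changed.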
